A study of Mus musculus with 15 samples.

Results

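Tnf, Lta and Ltb are 3 neighbouring genes on mouse chromosome 17, and their histone marks are followed here while pre-B cells became macrophage-like. The 3 genes were chosen by name, among 22208 protein-coding gene starts that were measured, and their locus runs from 20 kb before the first gene to 20 kb after the last (chr17:35311384-35362296, mm9, 50913 bp). C10 cells derive from the mouse pre-B line HAFTL and carry C/EBPα fused to the estrogen receptor, so that β-estradiol takes the factor into the nucleus. All libraries are labelled as this 1 line. Induced cells received β-estradiol and were grown with IL-3 and CSF-1, and control cells received the solvent ethanol. The labels do not say whether the 0 h libraries came from these control cells. H3K4Me1, a mark of enhancers, H3K27Ac, a mark of active promoters and enhancers, and H3K27Me3, a mark of Polycomb repression, were mapped by chromatin immunoprecipitation and sequencing (ChIP-seq) at 0, 3, 12, 24 and 48 hours post-induction (hpi). Each mark and time had a single library without replicates, so no test between times was possible. Intervals given below are 95% and cover counting error only. RNA was not measured in these libraries.

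Tnf encodes tumor necrosis factor, an inflammatory cytokine that macrophages release in quantity. Lta and Ltb encode lymphotoxin α and lymphotoxin β, which lymphocytes use to build and maintain lymphoid tissue. Lymphotoxin α is secreted as a trimer that binds the TNF receptors, or is held at the membrane by lymphotoxin β in a complex that binds the lymphotoxin β receptor. The genes lie in the major histocompatibility complex, and Tnf is a textbook target of NF-κB.

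Ltb (ENSMUSG00000024399.5) occupies chr17:35331384-35333265 on the plus strand. Tnf (ENSMUSG00000024401.8) and Lta (ENSMUSG00000024402.5) lie on the minus strand at chr17:35336326-35338952 and chr17:35340110-35342296. The starts of Tnf and Lta are 3344 bp apart, those of Ltb and Tnf 7568 bp, and the 3 genes together span 10913 bp. The 250 bases before each start are shown because the results turn on these starts. They were read from the mm9 genome (NCBIM37) at chr17:35338953-35339202 (minus), chr17:35331134-35331383 (plus) and chr17:35342297-35342546 (minus), 5′ to 3′ along each gene, with matches to any of the 5 motifs below in capitals.
Tnf promoter: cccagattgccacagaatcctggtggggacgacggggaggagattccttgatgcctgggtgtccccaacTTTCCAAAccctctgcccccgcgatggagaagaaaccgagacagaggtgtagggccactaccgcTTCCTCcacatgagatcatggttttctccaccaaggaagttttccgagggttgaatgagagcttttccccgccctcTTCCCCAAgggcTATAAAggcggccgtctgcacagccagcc
Ltb promoter: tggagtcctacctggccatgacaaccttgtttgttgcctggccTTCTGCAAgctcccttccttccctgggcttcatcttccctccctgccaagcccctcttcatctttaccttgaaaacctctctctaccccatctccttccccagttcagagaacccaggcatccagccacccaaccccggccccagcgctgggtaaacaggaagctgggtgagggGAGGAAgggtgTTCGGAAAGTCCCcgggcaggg
Lta promoter: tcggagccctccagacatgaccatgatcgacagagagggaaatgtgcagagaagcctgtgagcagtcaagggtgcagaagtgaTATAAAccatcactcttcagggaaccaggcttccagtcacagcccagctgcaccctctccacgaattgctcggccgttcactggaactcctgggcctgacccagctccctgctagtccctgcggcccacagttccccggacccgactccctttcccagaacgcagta

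Both strands were searched for NF-κB (searched by its 10-letter consensus, in which some letters stand for a purine or pyrimidine), C/EBP (TTNNGNAA), Ets/PU.1 (GAGGAA), AP-1 (TGANTCA) and the TATA box (TATAAA). The Tnf promoter held a TATA box 29 bases before the start, C/EBP matches at 41 and 181 bases and an Ets/PU.1 match at 117 bases. The Ltb promoter held an NF-κB match 19 bases before the start, which overlaps a C/EBP match at 22 bases. It also held an Ets/PU.1 match at 33 bases, a further C/EBP match at 207 bases and no TATA box. These positions depend on the annotated start of Ltb, whose promoter did not share a run of 200 bases with its RefSeq promoter. The only match of the Lta promoter was TATAAA, 167 bases before the annotated start. Of 22203 promoters of this length, 7.69% held the NF-κB motif, 35.4% C/EBP, 23.0% Ets/PU.1, 5.99% AP-1 and 12.3% the TATA box, so most of these matches are common. A match is a run of letters and does not show that a factor was bound.

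Each library was thinned to the smallest of its mark, which left H3K4Me1 with 10.91 M tags, H3K27Ac with 15.22 M and H3K27Me3 with 15.34 M, of 11.04 to 31.56 M deposited. The H3K27Ac libraries of 0 and 3 hpi stood apart from the others. They held 523 and 438 distinct tags in a 90 kb stretch of the immunoglobulin heavy chain genes on chromosome 12, whereas the other 13 libraries held 23 tags together. Whether these 2 libraries came from another culture or clone of the line was not tested. What this difference does to the H3K27Ac values of 0 and 3 hpi was not tested, and comparisons among 12, 24 and 48 hpi are therefore given beside those with 0 hpi. Beside total tags, changes were also scaled by background bins (10 kb bins with few tags in every library of the mark) and by the bins enriched at all 5 times, called the other scalings here. In background bins the H3K27Ac library of 24 hpi held 197392 tags, against 322951 to 582289 at the other times. In the bins enriched at all times that of 48 hpi held 6776269, against 8077215 to 9014342. Both ends of the step from 24 to 48 hpi thus differed from the other libraries, and the cause was not tested. Cell type markers were read from H3K27Ac at their starts. All 8 pre-B markers were at least 2-fold lower at 48 than at 0 hpi, against 9.36% of all starts, going from 859 to 1710 tags to 268 to 592 tags. With the other scalings 6 or 5 of the 8 were, against 4.99% or 3.97%. Of 8 macrophage markers 6 were at least 2-fold higher (Cd14, Il1b, Csf1r, Lyz2, Itgam and Mmp12), against 5.39% of all starts. Tlr4 was not, and Fcgr3 was 2-fold lower except with the other scalings. From 12 to 48 hpi, without the 2 libraries that stood apart, 4 of the 8 pre-B markers were at least 2-fold lower and 2 of the 8 macrophage markers higher. Of all starts, 4.66% were lower and 2.39% higher over this span. The 6 T cell markers had 1 to 12 tags at 0 hpi and 1 to 11 at 48 hpi. In such a population, fewer cells carrying a mark and less mark per cell cannot be told apart.

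H3K27Ac covered most of the locus in the pre-B cells already when set against the genome mean, and the same region carried fewer tags at 48 hpi. The locus held 6422, 5726, 6347, 6422 and 3401 H3K27Ac tags in the order of the 5 times. Its density was thus 20.2-fold over the mean of the mappable genome at 0 and 24 hpi and 10.7-fold at 48 hpi. The log2 change from 0 to 48 hpi was −0.92 (−0.98 to −0.86), that from 24 to 48 hpi −0.92 (−0.98 to −0.86) and that from 12 to 48 hpi −0.90 (−0.96 to −0.84). The lower level was therefore found at 48 hpi against each of these times, with and without the 0 hpi library. Scaled by background bins or by the bins enriched at all times, the change from 24 to 48 hpi was −1.63 and −0.53, and that from 0 to 48 hpi −0.62 and −0.51.

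**Figure D1:**
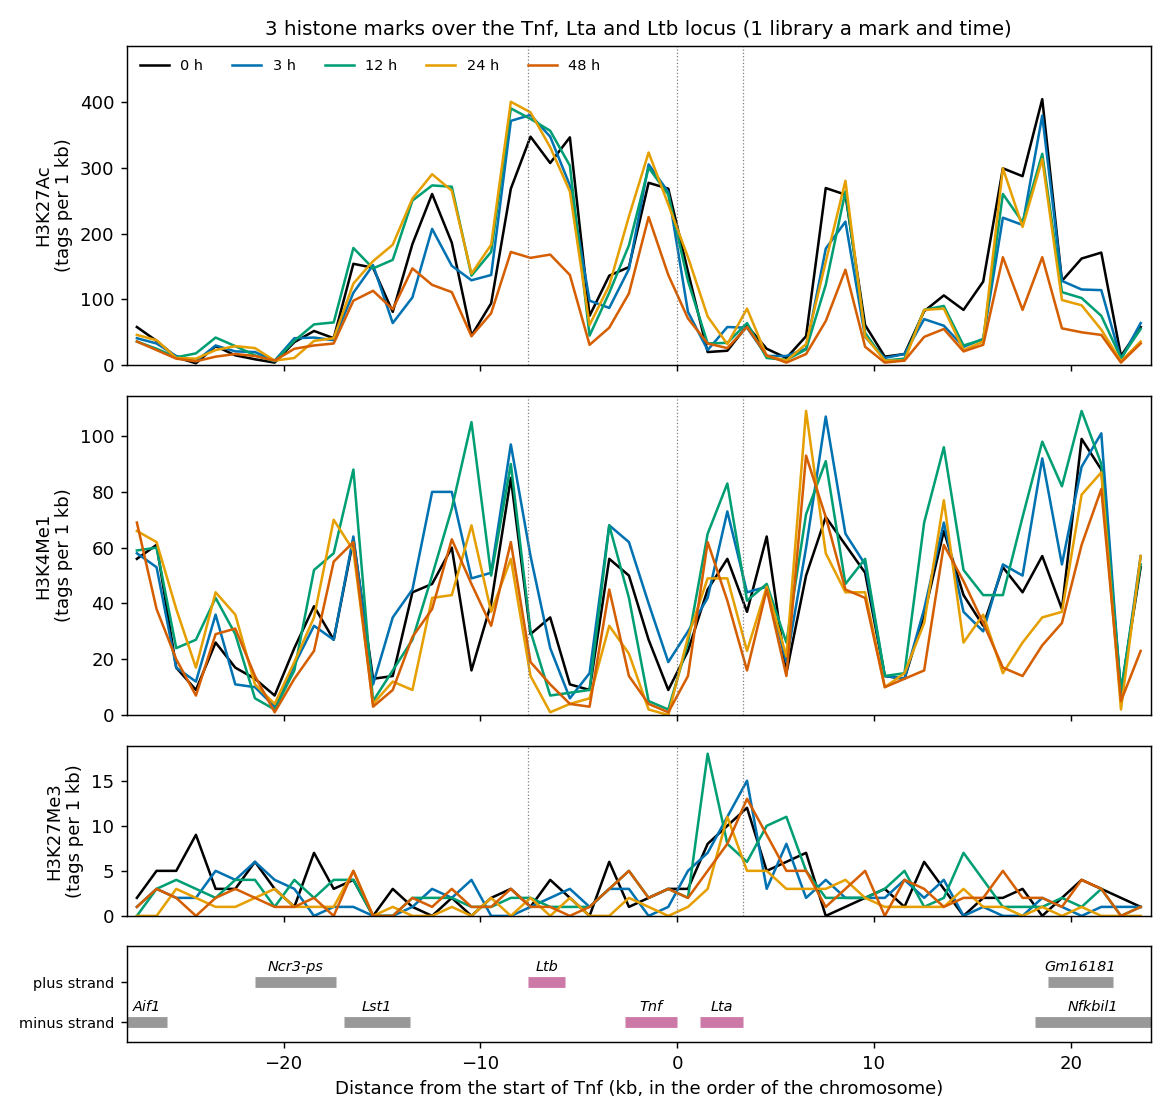
H3K27Ac, H3K4Me1 and H3K27Me3 tags per 1 kb bin (y axes) against distance from the start of Tnf in kb (x axis), 1 line per time with 1 library each. Dotted lines mark the starts of Ltb, Tnf and Lta, bars show the genes on each strand, and the 48 hpi line of H3K27Ac lies lowest over most of the locus.

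A 1 kb bin was called enriched in H3K27Ac with at least 16 tags (Poisson upper tail below 0.001 over a mean of 6.23 tags). Of the 52 bins of the locus 44, 45, 44, 43 and 42 were called at 0, 3, 12, 24 and 48 hpi, against 4.56%, 4.61%, 5.27%, 5.57% and 6.57% of 2442492 mappable bins. 40 bins were called at all 5 times, against 2.88% of all bins, and 5 at none. Against a local background of 100 kb, 20 bins were called at 0 hpi and 16 at 48 hpi, against 3.00% and 3.58% of all bins. The highest bin of each time held 404, 380, 390, 400 and 225 tags, in the order of the times, and was not the same bin throughout. The bin that was highest at 0 hpi (chr17:35357001-35358000) held 164 tags at 48 hpi. The bin that was highest at 48 hpi (chr17:35337001-35338000, in Tnf) held 277 tags at 0 hpi. Since the median bin of the locus held 45 to 85 tags, far above the limit of a call, the number of bins called can say little about a change in extent.

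At the 3 starts the H3K27Ac order was Ltb, Tnf, Lta at every time, and the intervals of neighbours in this order did not overlap. In the 3 kb centred on its start, Ltb had 930, 1114, 1144, 1149 and 512 tags at 0, 3, 12, 24 and 48 hpi. This was 49.8-fold over the genome mean in uninduced cells, 61.5-fold at 24 hpi and 27.4-fold at the end. Ltb was among the most acetylated starts in the genome, with the rank of 250 among 22208 before induction, 22 at 12 hpi and 1028 at 48 hpi. Its level was higher at 3, 12 and 24 than at 0 hpi (log2 change 0.26 to 0.31 with total tags). Scaled by background bins, these changes were −0.30 at 3 hpi, 0.14 at 12 hpi and 1.31 at 24 hpi. Between 24 and 48 hpi it was lower by a log2 change of −1.17 (−1.32 to −1.01), and between 12 and 48 hpi by −1.16 (−1.31 to −1.01). With the other scalings the step from 24 to 48 hpi was −1.88 and −0.78. From 0 to 48 hpi the change was −0.86 (−1.02 to −0.70), and −0.57 and −0.45 with the other scalings.

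Tnf had 545, 510, 541, 610 and 347 H3K27Ac tags at its start, which was 29.2-fold over the genome mean at 0 hpi and 18.6-fold at 48 hpi. Its promoter was thus strongly acetylated in the pre-B cells, above 92.4% of all starts, and above 86.8% at 48 hpi. Values at 0, 3 and 12 hpi lay within counting error of each other with total tags. Scaled by background bins, however, Tnf was lower at 3 than at 0 hpi (−0.65) and higher at 24 hpi (1.16, against 0.16 with total tags). The log2 change from 0 to 48 hpi was −0.65 (−0.85 to −0.45), or −0.36 and −0.24 with the other scalings, and that from 24 to 48 hpi −0.81 (−1.01 to −0.62), or −1.52 and −0.42. The signal lay inside the gene more than before it, with 547 tags in the first 2 kb of Tnf and 166 in the 2 kb before its start at 0 hpi. At 48 hpi these were 366 and 103 tags.

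Lta, which lies between Tnf and the upstream part of the locus, had little H3K27Ac. Its start held 106, 129, 110, 140 and 104 tags, 5.67-fold over the genome mean at 0 hpi and above 59.6% of all starts. The change from 0 to 48 hpi was −0.03 (−0.43 to 0.38) and turned to 0.26 and 0.38 with the other scalings, so no direction can be given for it. From 24 to 48 hpi it was −0.43 (−0.81 to −0.05), and with the other scalings −1.14 and −0.04.

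**Figure D2:**
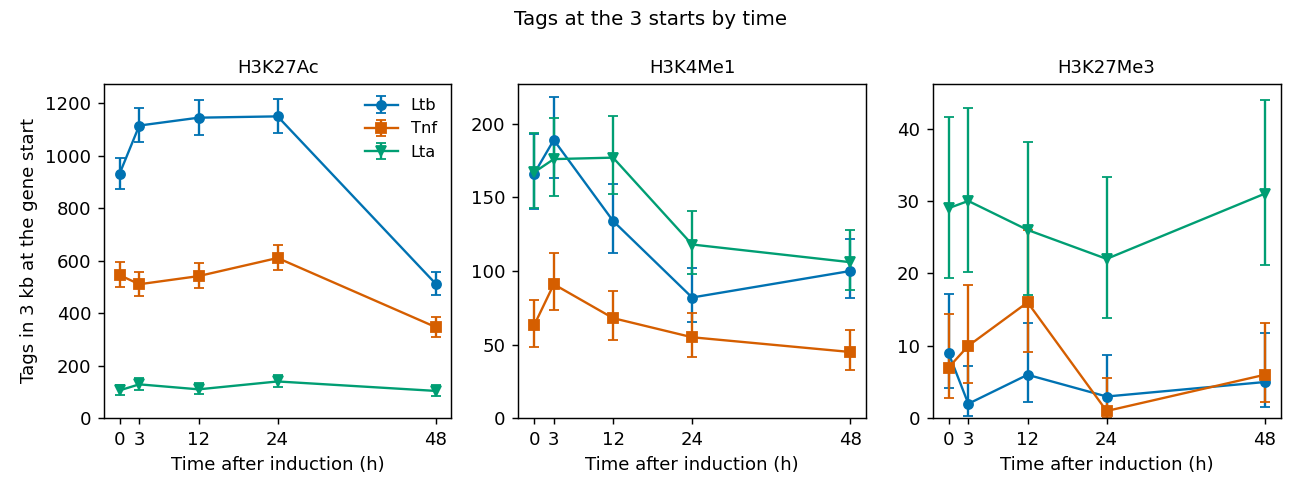
Tags in 3 kb at the starts of Ltb, Tnf and Lta (y axis) against time after induction in hours (x axis), 1 panel per mark, with exact Poisson 95% intervals as bars (counting error only). H3K27Ac was ordered Ltb, Tnf, Lta at all times, and Lta had the most H3K27Me3.

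Set against all starts, the lower H3K27Ac at 48 hpi was most marked at Ltb. Of 22208 starts 9.36% were at least 2-fold lower and 5.39% at least 2-fold higher at 48 than at 0 hpi (5 tags added to each count), and of the 3 genes 0 passed in either direction. With the other scalings the balance turned, with 4.99% and 3.97% of starts lower and 8.63% and 10.8% higher. From 24 to 48 hpi 1.86% of starts were at least 2-fold lower, and among the 3 genes Ltb was. Scaled by background bins all 3 genes were, against 28.2% of starts, and scaled by the bins enriched at all times 0 were, against 0.324%. With total tags the median change of all starts over this step was 0.00, and 0.793% of starts had a lower change than Ltb, 4.36% a lower change than Tnf and 20.1% a lower one than Lta. Since most starts have few tags, 9194 starts with a mean of at least 100 tags were also taken, a comparison added after the data were seen. Their median was −0.31, and 1.39% had a lower change than Ltb, 8.45% than Tnf and 37.1% than Lta. From 0 to 48 hpi the medians were −0.14 over all starts and −0.27 over these stronger starts. Over this longer span the genes were less extreme, with 12.2% of all starts below Ltb, 20% below Tnf and 55% below Lta, and 18.3%, 27.4% and 67.7% of the stronger starts.

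**Figure D3:**
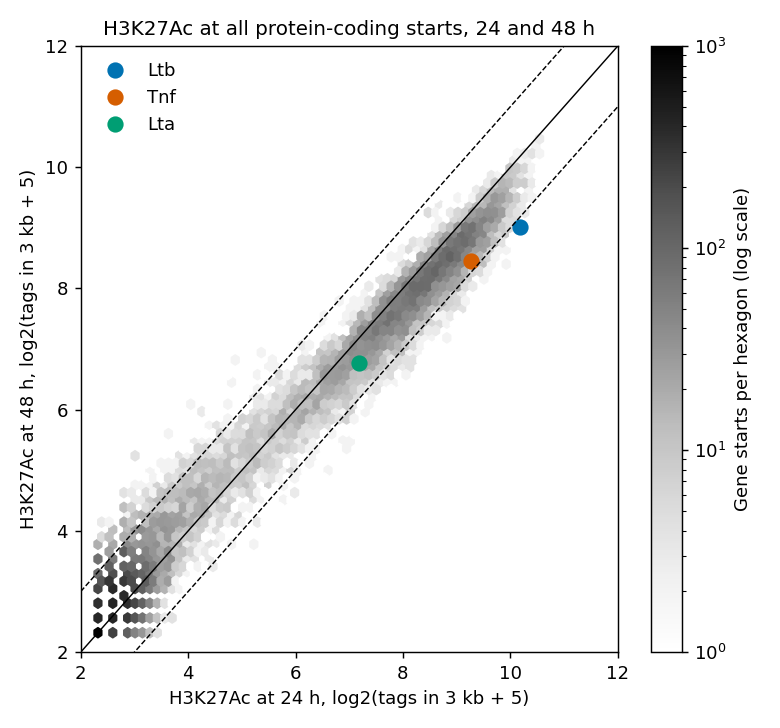
H3K27Ac in 3 kb at 22208 protein-coding starts at 24 hpi (x axis) and 48 hpi (y axis), both as log2 of tags plus 5, with shading for the number of starts and dashed lines at a 2-fold difference. Ltb lies just past the lower 2-fold line, Tnf between this line and the diagonal, and Lta nearer the diagonal.

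H3K27Ac also stood at 5 places of the locus away from the 3 starts, each taken as the highest called 1 kb bin with its 2 neighbours. 15 kb upstream of Lta, over the end of Nfkbil1 and the start of Gm16181 (chr17:35356001-35359000), there were 819, 720, 649, 622 and 304 tags. 5 kb upstream of Lta and 8.5 kb upstream of Tnf, in sequence with no annotated gene (chr17:35346001-35349000), there were 589, 438, 435, 481 and 240 tags. A smaller place 10 kb upstream of Lta (chr17:35351001-35354000) had 272, 158, 204, 193 and 119 tags. At these 3 places upstream of Lta the highest level was at 0 hpi and the lowest at 48 hpi with total tags. 5 kb upstream of Ltb, over the start of Lst1 (chr17:35325001-35328000), 630, 461, 794, 808 and 380 tags were counted. The last place, 16 kb upstream of Ltb (chr17:35314001-35317000), was weak, with 47, 57, 89, 62 and 36 tags. Both places on the Ltb side had their highest level at 12 or 24 hpi. Scaled by background bins, however, the 3 places upstream of Lta were also highest at 24 hpi, by 0.71, 0.51 and 0.61 over 0 hpi at 5, 10 and 15 kb, so that this contrast between the sides depends on the scaling.

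The log2 changes from 0 to 48 hpi were −1.30 (−1.52 to −1.08), −1.19 (−1.52 to −0.88) and −1.43 (−1.62 to −1.24) at 5, 10 and 15 kb upstream of Lta, and −0.73 (−0.92 to −0.54) at 5 kb upstream of Ltb. This difference between the sides was found with the 0 hpi library, 1 of the 2 that stood apart. With the other scalings the changes were −1.0 and −0.88, −0.90 and −0.78, −1.14 and −1.02, and −0.44 and −0.32. At the weak place 16 kb upstream of Ltb the change was −0.38 (−1.05 to 0.27), and −0.09 and 0.03 with the other scalings. No direction can be given for it, so the Ltb side rests on 1 place. From 24 to 48 hpi the changes were −1.0 (−1.23 to −0.78), −0.70 (−1.04 to −0.36) and −1.03 (−1.24 to −0.83) upstream of Lta and −1.09 (−1.27 to −0.91) upstream of Ltb. Without the libraries of 0 and 3 hpi, therefore, these 4 places had changes whose intervals overlap. At the weak place 16 kb upstream of Ltb this change was −0.78 (−1.42 to −0.17). Counted by bins, 15 of the 47 locus bins called at any time were at least 2-fold lower at 48 than at 0 hpi, against 19.5% of such bins genome-wide, and 10 of the 15 lay among the 16 bins upstream of Lta. With the other scalings 7 and 6 bins of the locus were, against 14.5% and 12.8%, and 6 of these lay upstream of Lta under both scalings. From 24 to 48 hpi 13 of the 47 were, against 5.75% genome-wide, of which 2 lay upstream of Lta and 11 in the rest. This count hung on the scaling, with 37 bins against 32.2% when scaled by background bins and 1 against 1.49% when scaled by the bins enriched at all times.

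The middle 300 bases of the highest bins 15 and 5 kb upstream of Lta are shown, since these carried the most H3K27Ac of the 3 upstream places. The first, chr17:35357351-35357650, lies in the last coding exon of Nfkbil1, and the second, chr17:35347351-35347650, was added after the values were seen because it lies in no annotated transcript. Both are the plus strand of mm9, with motif matches in capitals.
Lta upstream 15 kb: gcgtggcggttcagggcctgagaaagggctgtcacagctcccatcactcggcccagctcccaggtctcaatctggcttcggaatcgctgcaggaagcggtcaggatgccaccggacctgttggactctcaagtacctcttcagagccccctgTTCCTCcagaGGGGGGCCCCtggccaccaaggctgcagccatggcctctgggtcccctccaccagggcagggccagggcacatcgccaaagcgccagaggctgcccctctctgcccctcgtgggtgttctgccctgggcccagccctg
Lta upstream 5 kb: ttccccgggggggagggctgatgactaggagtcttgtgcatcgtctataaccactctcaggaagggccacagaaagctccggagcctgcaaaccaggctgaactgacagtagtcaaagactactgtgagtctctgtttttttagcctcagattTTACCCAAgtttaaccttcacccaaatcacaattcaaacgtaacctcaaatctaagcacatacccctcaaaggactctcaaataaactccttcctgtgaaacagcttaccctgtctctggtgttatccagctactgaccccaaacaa

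The exonic piece held an Ets/PU.1 match and an NF-κB match, at a run of letters that fits the consensus on either strand, and was 66.7% G and C. The piece without annotation held a single C/EBP match and was 47.0% G and C. Among 111340 pieces of this length in the middle of bins called in H3K27Ac at 0 hpi, 47.7% held a C/EBP match, 27.2% Ets/PU.1, 5.57% NF-κB, 8.49% AP-1 and 17.8% the TATA box. A C/EBP match in such a piece is therefore common.

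H3K4Me1 was ordered otherwise than H3K27Ac, with Lta and Ltb above Tnf. At its start Lta had 167, 176, 177, 118 and 106 H3K4Me1 tags, 12.5-fold over the genome mean at 0 hpi, which put it above 99.3% of all starts at 0 hpi and 97.0% at 48 hpi. Lta was thus the start with much H3K4Me1 and little H3K27Ac. Ltb had 166, 189, 134, 82 and 100 tags and Tnf 63, 91, 68, 55 and 45, which was still above 81.6% of all starts at 0 hpi. The intervals of Lta and Ltb overlapped at all 5 times, and that of Tnf lay below that of Lta at every time. The interval of Tnf also lay below that of Ltb except at 24 hpi, where these 2 overlapped.

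The H3K4Me1 changes from 0 to 48 hpi were −0.66 (−1.02 to −0.30) at Lta, −0.73 (−1.10 to −0.36) at Ltb and −0.49 (−1.07 to 0.09) at Tnf, and turned to 0.31, 0.24 and 0.48 when scaled by background bins. No direction of H3K4Me1 over the 3 kb can therefore be given. 9.65% of all starts were at least 2-fold lower and 3.32% at least 2-fold higher, and of the 3 genes 0 passed in either direction. Scaled by background bins, this balance turned to 0.207% lower and 23.2% higher, and scaled by the bins enriched at all times it stayed at 7.05% lower and 3.46% higher. Over the whole locus H3K4Me1 went from 1971 tags at 0 hpi to 2258, 2391, 1755 and 1579 tags, and its change from 0 to 48 hpi likewise turned from −0.32 to 0.65 with background bins. Of the 52 bins 46 were called at 0 hpi and 41 at 48 hpi, against 7.29% and 8.96% of all bins, and 38 were called at all 5 times, against 4.56%.

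Within this mark the bodies of Tnf and Ltb stood out, a split of the window that was made after the data were seen. The first 2 kb of Tnf had 36, 61, 7, 2 and 5 H3K4Me1 tags at 0, 3, 12, 24 and 48 hpi, while the 2 kb before its start had 67, 72, 89, 77 and 74. The first 2 kb of Ltb had 58, 54, 15, 9 and 17 tags, and the 2 kb before its start 128, 162, 149, 91 and 97. H3K4Me1 was thus low inside both genes from 12 hpi on, while the sequence before each start held most of its 0 hpi tags. The 0 hpi tags inside the genes were unevenly spread, however. In Ltb the 250 bp steps from 250, 500 and 750 bp held 11, 25 and 12 tags, and those from 1250, 1500 and 1750 bp held 0, 0 and 2. In Tnf no step before 1500 bp held more than 6 tags, and those from 1500 and 1750 bp held 7 and 10. Lta showed no such pattern, with 99, 118, 134, 87 and 92 tags in its first 2 kb and 91, 81, 76, 67 and 57 before it. The 2 kb before Tnf reach into the end of Lta, so these windows share some tags.

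From 0 to 48 hpi the log2 change in the first 2 kb was −2.85 (−4.55 to −1.49) at Tnf and −1.77 (−2.64 to −0.97) at Ltb, and −0.11 (−0.53 to 0.32) at Lta. The intervals of Tnf and Ltb did not overlap that of Lta. With 5 tags added, Tnf and Ltb were at least 2-fold lower at 12, 24 and 48 hpi, 2 of the 3 genes, against 3.53%, 6.93% and 9.56% of all starts. Among 11551 starts with a mean of at least 10 tags in this window, 11.2% were at 48 hpi. When scaled by background bins the changes at 48 hpi, with 5 tags added, were −1.07 at Tnf, −0.55 at Ltb and 0.87 at Lta, so that Ltb no longer passed 2-fold at this time. The same scaling gave −1.09 at Tnf and −0.97 at Ltb at 12 hpi, where Ltb again did not pass, and −1.63 and −1.25 at 24 hpi. Scaled by the bins enriched at all times, Tnf and Ltb passed at each of these times. Their changes were −2.03 and −1.91 at 12 hpi, −2.64 and −2.26 at 24 hpi and −1.98 and −1.46 at 48 hpi. The shares of all starts given here are with total tags, and none is given for this window with the other scalings. Scaling by the bins enriched at all times adds −0.26 at 12 hpi and −0.094 at 24 hpi to every change. The share of starts that pass 2-fold lower at these times can therefore only be as high as with total tags or higher. For starts with a mean of at least 10 tags the share was taken at 48 hpi only.

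Up to 24 hpi, H3K27Ac in the same 2 kb did not go the same way. In the first 2 kb of Tnf it was 547, 572, 564, 576 and 366 tags, and in that of Ltb 710, 758, 758, 705 and 329. Both had their fewest H3K4Me1 tags at 24 hpi, though counts this small do not order 12, 24 and 48 hpi. At 12 and 24 hpi their H3K27Ac, scaled by total tags, lay within counting error of that at 0 hpi. When scaled by background bins, H3K27Ac in this window at 24 hpi was higher than at 0 hpi by 1.08 at Tnf and 0.99 at Ltb on the log2 scale. With total tags, both marks were lower at 48 than at 0 hpi, with H3K27Ac changes of −0.58 (−0.77 to −0.39) at Tnf and −1.11 (−1.30 to −0.92) at Ltb. With the other scalings, and 5 tags added, the H3K27Ac changes were −0.28 and −0.16 at Tnf and −0.81 and −0.69 at Ltb.

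**Figure D4:**
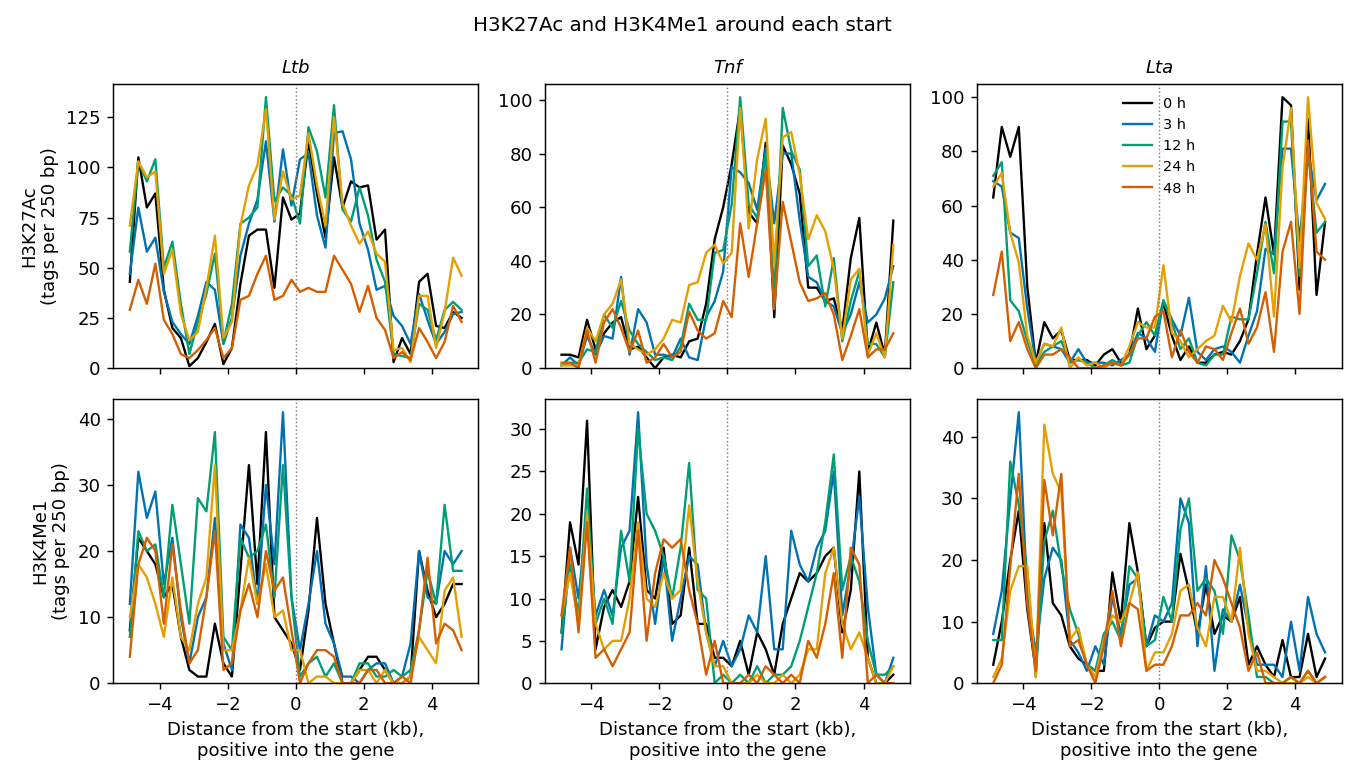
H3K27Ac (upper row) and H3K4Me1 (lower row) in tags per 250 bp against distance from the start of Ltb, Tnf and Lta in kb, positive into the gene, 1 line per time with 1 library each. H3K4Me1 lines of 12, 24 and 48 hpi lie near 0 just inside Ltb and Tnf but not inside Lta. The 0 hpi line is also low inside Tnf up to 1500 bp, with 1 to 6 tags per 250 bp, and in the first 250 bp of Ltb, with 2.

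H3K27Me3 was scarce. The locus held 165, 133, 160, 82 and 135 tags, a density of 0.516-fold the genome mean at 0 hpi and 0.256-fold at 24 hpi. Ltb had 9, 2, 6, 3 and 5 tags at its start and Tnf 7, 10, 16, 1 and 6. Lta was the highest of the 3, with 29, 30, 26, 22 and 31 tags, 1.54-fold over the genome mean and above 78.7% of starts at 0 hpi. Its change from 0 to 48 hpi was 0.10 (−0.68 to 0.88). In 5 kb bins, 50 tags were needed for a call. At 0 and 48 hpi 0 of the 11 bins of the locus were called, against 17.6% and 18.5% of all bins, and 1 was at 12 hpi, against 17.7%. This was the bin that holds the start of Lta (chr17:35340001-35345000), which had 41, 44, 53, 27 and 40 tags and so passed the limit at 12 hpi only.

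Starts elsewhere with the most similar levels in the 15 libraries (the smallest Euclidean distance in log2 of tags plus 5, over 22202 genes) were Dennd1a (0.88), Lrrc8a (0.89) and Txnrd2 (1.0) for Tnf. Ltb was closest to Ikzf1 (1.23), which encodes a lymphoid transcription factor, B9d2 (1.29) and Ero1l (1.45). Lta was closest to Abhd6 (1.05), Gorasp1 (1.32) and Ttc21a (1.39), the last 2 of which start side by side and so share most of their tags. The 3 genes themselves were farther apart, at 3.40 between Tnf and Ltb, 6.31 between Tnf and Lta and 7.75 between Lta and Ltb. Median distances to all genes were 11.25 from Tnf, 8.76 from Lta and 13.74 from Ltb.

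Among the other ligands of the TNF superfamily, 4 of 15 had at least 2-fold more H3K27Ac at 48 than at 0 hpi and 0 had less, against 5.39% and 9.36% of all starts, with a median change of 0.00 against −0.14 over all starts. With 5 tags added, however, a start with fewer than 5 tags at 0 hpi cannot pass 2-fold lower. The median ligand held 4 tags at 0 hpi, against 16 over all starts. The count of 0 lower and the median change of this list therefore say little. Tnfsf14, which encodes LIGHT, a further ligand of the lymphotoxin β receptor, had 7, 8, 111, 647 and 558 tags. Tnfsf13, which encodes the B cell factor APRIL, had 12, 39, 152, 100 and 68 tags, with its highest level at 12 hpi. Tnfsf13b (BAFF) and Tnfsf18 (GITR ligand) had 11 and 12 tags at 48 hpi, against 2 and 1, and so stayed low. Tnfsf14 thus reached a level like that of Ltb at 48 hpi, from close to no signal, while Ltb and Tnf were lower than at 0 hpi.

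**Figure D5:**
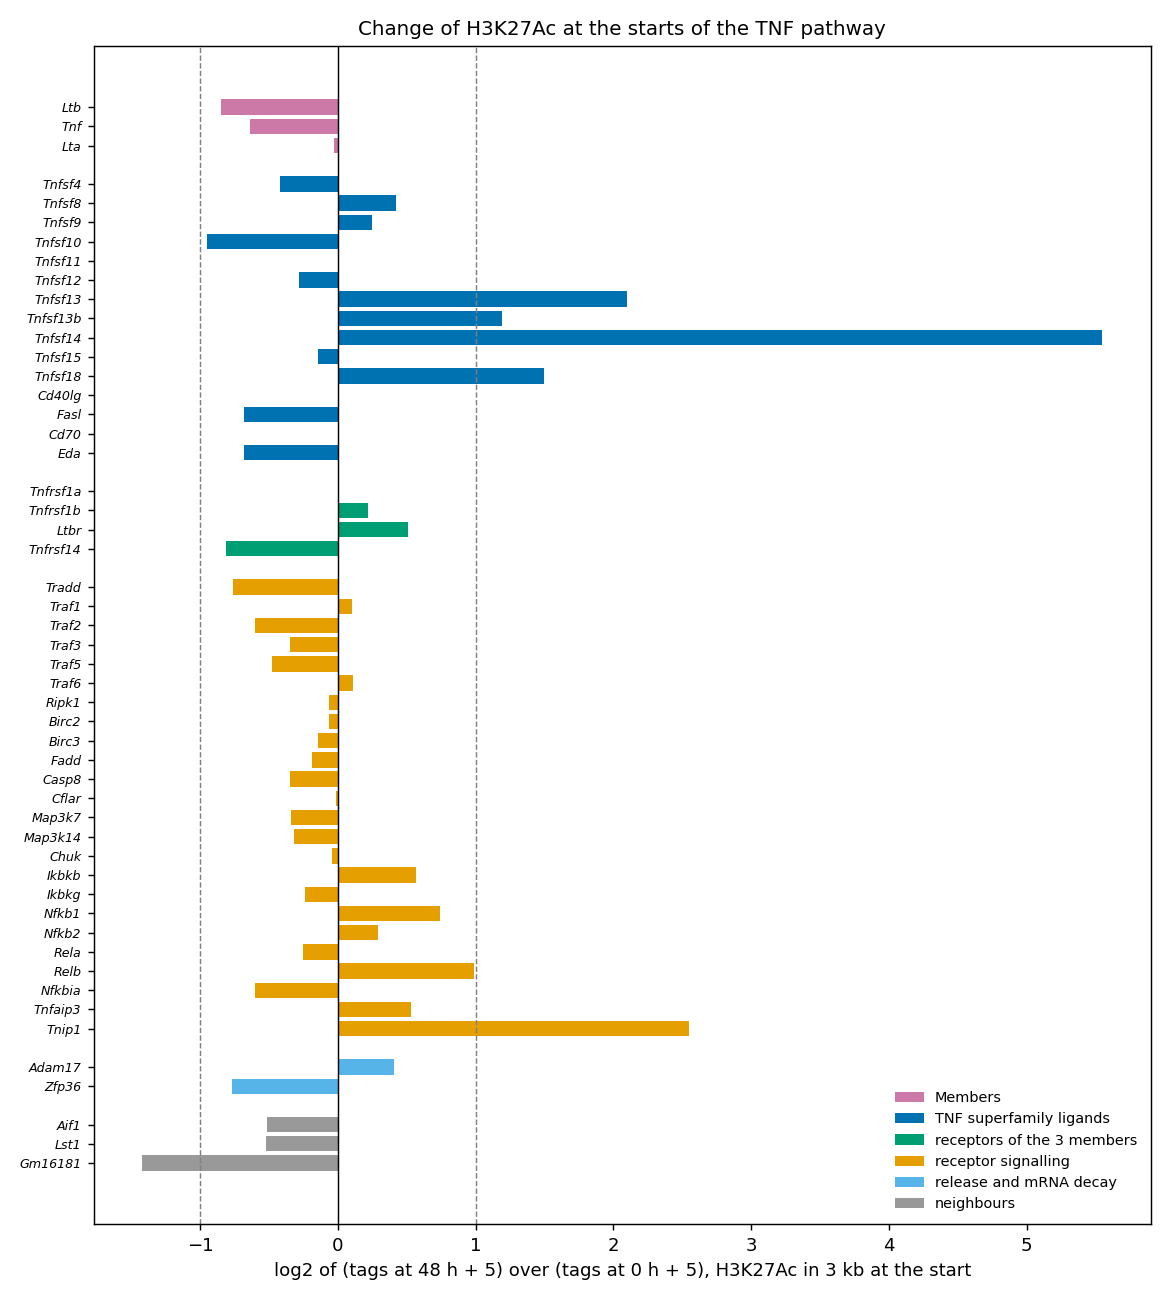
Change of H3K27Ac in 3 kb at the start from 0 to 48 hpi, as log2 of tags plus 5 at 48 hpi over the same at 0 hpi (x axis), for Ltb, Tnf, Lta and the ligand, receptor, signalling, release and neighbour genes, without the cell type markers (y axis), with dashed lines at 2-fold. Tnfsf14 and Tnip1 extend farthest to higher values, and Gm16181 farthest to lower ones.

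Of the 4 receptors 0 passed 2-fold in either direction, against 5.39% of all starts higher and 9.36% lower. Tnfrsf14 (HVEM) had 1290 tags at 0 hpi and 736 at 48 hpi, and Tnfrsf1b (TNF receptor 2) 296 and 346. Tnfrsf1a (TNF receptor 1) had 3 tags at both times and Ltbr 2 and 5, so the annotated starts of these 2 receptors carried next to no H3K27Ac in the 3 kb counted. With 5 tags added to counts this small, neither could pass 2-fold lower. Of 24 genes that carry or restrain the signal of these receptors, 1 was at least 2-fold higher and 0 lower, with a median change of −0.10. The count of higher genes was close to the 5.39% of all starts that were higher, while 9.36% of all starts were lower. The 1 higher gene was Tnip1, an inhibitor of NF-κB signalling that works with A20, from 10 to 83 tags. Relb, the NF-κB subunit of the lymphotoxin pathway, went from 159 to 320 tags (0.99 with 5 tags added), and with either other scaling Relb and Nfkb1 also passed, when 8.63% and 10.8% of all starts did. Adam17, the protease that releases TNF, had 396 and 529 tags and Zfp36, which promotes decay of Tnf mRNA, 1014 and 593. Neither passed 2-fold.

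From 12 to 48 hpi, without the libraries of 0 and 3 hpi, 2.39% of all starts were at least 2-fold higher and 4.66% lower. Of the ligands Tnfsf14 was higher and Tnfsf13 lower from its high level at 12 hpi, and Tnfsf13b and Tnfsf18 did not pass. Of the receptors, signalling genes and release genes 0 passed in either direction, Tnip1 included.

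Of the 3 protein-coding neighbours whose starts lie in the locus, Gm16181 was at least 2-fold lower, with 809 tags at 0 hpi and 299 at 48 hpi, which are nearly the same tags as those of the place 15 kb upstream of Lta, and it was also lower from 12 to 48 hpi. Lst1 had 491, 342, 648, 692 and 341 tags and Aif1 62, 62, 51, 66 and 42. The start of Lst1 shares tags with the place 5 kb upstream of Ltb. With total tags Lst1, like Ltb, had its highest counts at 12 and 24 hpi. Those of Ltb, 1144 and 1149, lay within counting error of each other.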

How the data were processed

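ChIP-seq of C10 cells was done for 3 histone marks at 5 times, with 1 library per mark and time, grouped by the GEO labels. The authors aligned Illumina reads to mm9 with Eland or Bowtie without mismatches and removed tags that were not unique or were identical. The deposited files hold tag positions (36 bp, without strand), not counts or a normalized signal, and differ in how many tags they keep at 1 position.

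Here, 1 tag per position was kept and placed at its middle (18 bp). Chromosomes 1 to 19 and X were used, and libraries were thinned at random to the smallest of their mark. The build was checked on the tags, since 0 of 207342505 thinned tags fell in the 82908 bins of 1 kb that hold only unknown bases. Gene starts are those of GENCODE vM1 on NCBIM37, which is mm9. Tags were counted in 3 kb at each start and in bins of 1 kb (5 kb for H3K27Me3), called at a Poisson upper tail below 0.001 over the mean of mappable bins. Tag counts have exact Poisson intervals and ratios of 2 counts exact binomial intervals. A 2-fold difference was read with 5 tags added to each count. Calls and intervals were tested on simulated data. Python 3.11.15, numpy 2.4.6, pandas 2.3.3, scipy 1.17.1 and matplotlib 3.10.9 were used.

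Scaling was by total tags. Others tried were background bins (10 kb bins below the median in every library of the mark) and the bins called at all times, as well as tags as deposited, windows of 2 and 6 kb, 10 kb on each side of the genes, a shifted grid, a local background of 100 kb and a stricter call. Genes named are the 3 members, neighbours with a start in the locus, genes of fixed ligand, receptor, signalling and release lists that passed 2-fold, and the 3 starts most like each member. Receptors, Relb, Nfkb1, Adam17 and Zfp36 and the marker genes are named beyond this rule. The members and lists were chosen with earlier results of these data known. The 250 bases before each start were compared with the RefSeq promoter of GRCm38.p6. A match was the last 200 of the 250 bases in that promoter, or its first 200 bases in the 250. Tnf and Lta had such a match and Ltb did not, and shared runs at other positions were not searched. C/EBPα binding, RNA and nucleosome data were not analysed here.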

Additional observations from a re-analysis of the deposited data

How the results depend on the processing

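For 14 results (the change of each mark from 0 to 48 hpi at each start and over the locus, and H3K27Ac bins called at 0 and 48 hpi), 86 alternative values were computed, of which 69 stayed within the counting interval, or for bins within 1.5 times, and 17 did not. Of 12 changes tried with each other scaling, 7 left the interval with background bins and 4 with the bins called at all times. H3K27Me3 intervals at the starts were wide, such as −2.07 to 1.57 at Tnf, so its values there could hardly leave them. Scaled by background bins, the H3K27Ac changes were −0.36 at Tnf, −0.57 at Ltb and −0.62 over the locus, and the H3K4Me1 changes 0.48 at Tnf, 0.31 at Lta, 0.24 at Ltb and 0.65 over the locus. Scaled by bins called at all times, H3K27Ac changes were −0.24 at Tnf, 0.38 at Lta, −0.45 at Ltb and −0.51 over the locus. These scalings move the median H3K27Ac change of all starts from −0.14 to 0.15 and 0.27, and that of H3K4Me1 from −0.27 to 0.70 and −0.21. A 2 kb window gave −0.94 for H3K27Ac and −1.28 for H3K4Me1 at Tnf, and a 6 kb window −0.12 for H3K4Me1 at Lta. With 10 kb on each side, the H3K27Ac change of the locus was −0.78. With a local background of 100 kb, 20 bins were called at 0 hpi and 16 at 48 hpi. The cause of these shifts was not tested. No paired analysis was possible because no group has a second library. Depth limits H3K27Me3, where the starts of Tnf and Ltb held 1 to 16 tags, and H3K4Me1 in the first 2 kb of Tnf, with 2 to 7 tags from 12 hpi on.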
